A study of Mus musculus with 28 samples.

Results

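Dendritic cells of the renal medulla, the inner kidney, were compared with those of the cortex, the outer kidney, in healthy mice of the inbred strain BALB/c. The comparison rests on 8 of the 28 arrays of the series, which were chosen by their titles: 4 of medulla and 4 of cortex. Mouse numbers in the labels join these arrays into 4 pairs, with a cortex and a medulla array from each of 4 mice, and every difference given here is medulla minus cortex. The animals are labelled as homeostatic, with no transgene and no treatment. Kidneys were digested with collagenase and DNase, cells carrying CD45, CD11c and MHC class II were sorted, and their RNA was amplified before it was labelled. The sources used here do not give age, sex or the number of cells behind each array. Other groups enter only for comparison. These are homeostatic C57BL/6 cortex and medulla (4 arrays each, from 4 other mice), and donor cells (labelled BALB/c, sorted for CD45.2) and host cells (labelled C57BL/6, sorted for CD45.1) from cortex and medulla of kidney allografts 3 days after transplantation (3 arrays each). Levels are log2 array signal, on which 1 unit is a doubling, and they are compared only between arrays, never between genes.

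Renal cells with CD11c and MHC class II include conventional dendritic cells, which carry antigen to T cells, and resident macrophages, which clear debris and immune complexes, and these surface proteins do not fully part the 2 kinds. The regions around them differ: the cortex is filled with proximal tubules that reabsorb filtered solute, while the medulla holds loops of Henle and collecting ducts in a salty, poorly oxygenated interstitium. Cells in hypertonic surroundings activate the transcription factor NFAT5, which raises genes for the uptake and synthesis of organic osmolytes. Myeloid cells also carry paired receptors, families with activating and inhibitory members such as the CD300 and PILR receptors, which set the threshold of their responses.

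The paired receptors Cd300ld and Pilra were lower in the medulla. Ranbp3l and Slc6a12, of a list of NFAT5 and osmolyte genes, had higher medulla levels that did not pass the test. Their promoters are shown here because these 4 genes carry the 2 groups described most closely below. Each is the stretch of 250 bases before the gene's start, 5′ to 3′ on the gene's own strand, taken from RefSeq on the mouse assembly GRCm38.p6 (for Slc6a12, the first of its 5 listed starts, whose window is the only one of the 5 with a match to the motif below). Capitals mark AGGAAG, a core bound by the myeloid factor PU.1, or its reverse complement CTTCCT in Cd300ld and Pilra. In Ranbp3l and Slc6a12 they mark TGGAAA, the core of the NFAT5 element, or its reverse complement TTTCCA. A single motif is marked in each window. Unmarked, TTTCCA also occurs in the Cd300ld window, TGGAAA in the Pilra window and CTTCCT in the Slc6a12 window.
Cd300ld promoter (chr11:114989887-114990136, minus strand): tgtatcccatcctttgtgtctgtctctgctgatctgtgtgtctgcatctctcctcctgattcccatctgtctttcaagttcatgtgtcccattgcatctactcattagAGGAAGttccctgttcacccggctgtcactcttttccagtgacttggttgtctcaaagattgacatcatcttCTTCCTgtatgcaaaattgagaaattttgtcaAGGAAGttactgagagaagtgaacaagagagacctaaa
Pilra promoter (chr5:137836279-137836528, minus strand): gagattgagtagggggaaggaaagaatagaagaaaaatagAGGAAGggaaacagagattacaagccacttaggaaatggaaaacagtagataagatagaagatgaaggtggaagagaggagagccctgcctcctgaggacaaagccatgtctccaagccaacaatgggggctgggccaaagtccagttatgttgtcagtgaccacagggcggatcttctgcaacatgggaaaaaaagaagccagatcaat
Ranbp3l promoter (chr15:8967699-8967948, plus strand): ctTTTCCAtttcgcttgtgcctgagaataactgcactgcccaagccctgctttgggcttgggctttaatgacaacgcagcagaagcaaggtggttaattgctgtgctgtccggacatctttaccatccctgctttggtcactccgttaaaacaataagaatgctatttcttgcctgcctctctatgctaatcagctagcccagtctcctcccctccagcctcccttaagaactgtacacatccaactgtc
Slc6a12 promoter (chr6:121342324-121342573, plus strand): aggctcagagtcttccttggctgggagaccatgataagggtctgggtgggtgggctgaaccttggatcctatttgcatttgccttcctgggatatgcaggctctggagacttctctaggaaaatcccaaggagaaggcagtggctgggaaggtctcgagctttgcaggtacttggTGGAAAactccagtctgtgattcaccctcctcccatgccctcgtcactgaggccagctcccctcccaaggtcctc
AGGAAG was present on either strand in 29.5% of 32851 promoter windows in the table, and in 15 of 19 windows (78.9%) of the paired receptors, where 17 of 25 tested genes had a window. The Cd300ld window held 3 matches and the Pilra window held 1. TGGAAA was present in 18.6% of all windows and in 4 of 18 windows (22.2%) of the NFAT5 and osmolyte list, where 9 of 11 genes had one. The motifs share the letters GGAA, preceded by A in the former and by T in the latter, so no single GGAA serves for both. A match is a description of these letters and not a measured binding site.

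The transcripts of the sort markers were checked next. Ptprc, which encodes CD45, was bright in all 8 arrays, from 12.22 to 12.82 in cortex and from 12.37 to 12.72 in medulla, with a difference of -0.08 ± 0.37 (SE). H2-Ab1, a chain of MHC class II, lay between 11.83 and 12.17 in cortex and between 11.61 and 12.05 in medulla (difference -0.12 ± 0.37). Itgax, which encodes CD11c, stood at 9.90, 11.85, 10.15 and 9.97 in the cortex arrays of replicates 1 to 4 and at 7.20, 8.68, 8.31 and 9.53 in the medulla arrays. Its groups did not overlap, but the difference of -2.04 ± 0.52 did not pass (adjusted p = 0.164). A list of 21 leukocyte-wide genes averaged 11.31 ± 0.25 (SD, n = 4) in cortex and 11.24 ± 0.13 in medulla, a list of 17 resident macrophage markers 10.74 ± 0.11 and 10.84 ± 0.15, and a list of 11 type 1 dendritic cell markers 9.99 ± 0.06 and 9.62 ± 0.39. The labelled cell type thus had its leukocyte and antigen-presentation transcripts in each array, while that of CD11c was dimmer in the medulla arrays. Because these are bulk samples, fewer cells of a type and less RNA per cell cannot be told apart.

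The medulla array of replicate 1 stood apart. Its mean correlation with its own group over all probesets was 0.788, against 0.848 to 0.950 for the other 27 arrays of the series, and its spread over probesets (SD 1.46) was the lowest of the 8 BALB/c arrays (1.46 to 1.67). The other 20 arrays had SDs of 1.65 to 1.84. Medulla replicates 2 to 4 came next, at 0.856, 0.852 and 0.848 with their own group, which includes replicate 1. With the cortex arrays they correlated at 0.893, 0.890 and 0.870. The lowest of the remaining arrays was BALB/c cortex replicate 3 at 0.881. In its main form the test below takes its spread from all 28 arrays, so wider scatter in the BALB/c groups is not modelled. Values without medulla replicate 1 are given beside the results that it moved most.

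Of 14346 genes tested with limma, 10 differed between the regions at an adjusted p under 0.05 (0.0697%), 3 higher in the medulla (0.0209%) and 7 lower (0.0488%). They comprise RNA-processing genes (Snrpa1 and Lsm10), myeloid receptors (Cd300ld and Pilra), a kinase (Mapk14), a linker histone (H1f2), a translation cofactor (Eef1e1), a zinc-finger gene (Zfp638), a septin (Septin2) and a small adaptor gene (Bex3). At an unadjusted p under 0.05 there were 1000 genes (6.97%), 508 higher (3.54%) and 492 lower (3.43%). The median difference of all genes was 0.03. In all 10 genes the 4 within-mouse differences shared 1 sign, which held for 11.0% of all genes (5.95% higher and 5.06% lower). In all but Septin2 the groups did not overlap, which held for 2.40% (1.31% higher and 1.09% lower). The choice of the 10 by their p-values in these same arrays nearly fixed both traits, so these shares describe the 10 and do not support them. When mouse was fitted as a random block, 40 genes passed (20 higher and 20 lower), among them all 10, and after a repeated quantile normalization 39 passed (20 higher and 19 lower), again with all 10. With mouse as a fixed block over all 28 arrays, an alternative added after the data were seen that leaves 12 residual degrees of freedom, 8 genes passed, 7 of them among the 10. Lsm10 and Pilra (adjusted p = 0.0636 each) and Bex3 (0.0731) were then lost. When the 8 arrays were fitted alone, limma called 1 gene (Lsm10) with no term for mouse, with 598 at an unadjusted p under 0.05. With mouse as a fixed block in that small fit, which has 3 residual degrees of freedom, it called 0, with 655 at an unadjusted p under 0.05. The adjusted p of the last, the 8-array block fit, is given beside each gene. Without the medulla array of replicate 1, 21 genes passed, of which 7 were among the 10; Mapk14, Septin2 and Bex3 were then lost.

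**Figure D1:**
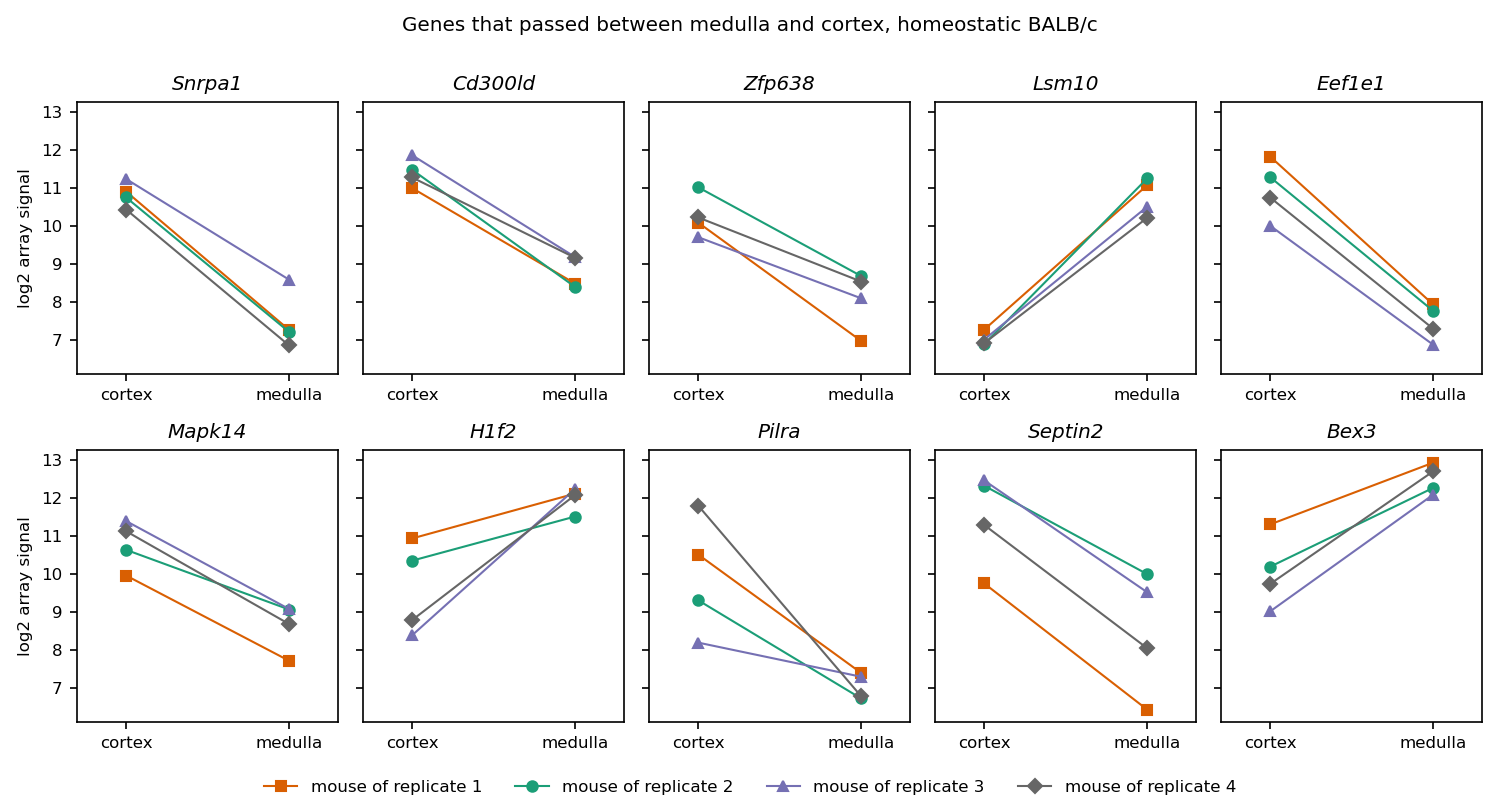
Log2 array signal of the 10 genes that passed between medulla and cortex, 1 panel per gene, with a line joining the cortex and medulla arrays of each of the 4 BALB/c mice. All 4 lines run in the same direction in each panel, and the medulla and cortex values overlap only in Septin2, where a cortex array at 9.75 lies below a medulla array at 10.00.

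Both myeloid receptors that passed were lower in the medulla. Cd300ld (probeset 10392808), a receptor of the CD300 family on myeloid cells, had levels of 10.99, 11.47, 11.85 and 11.27 in the cortex arrays and 8.48, 8.39, 9.18 and 9.16 in the medulla arrays. Every medulla array was at least 1 unit below every cortex array, and the difference was -2.59 ± 0.37 (adjusted p = 0.00229; 0.131 in the 8-array block fit). Pilra (probeset 10534927), an inhibitory receptor that signals through the phosphatases SHP-1 and SHP-2, had levels of 10.51, 9.31, 8.20 and 11.79 in cortex and 7.40, 6.73, 7.30 and 6.79 in medulla. The cortex arrays were scattered over more than 3 units while the medulla arrays were all dim, below the level of 7.45 to 7.62 that marks the 40th percentile of these arrays. Its difference was -2.90 ± 0.53 (adjusted p = 0.0293; 0.999 in the 8-array block fit), and it no longer passed when cortex replicate 1, cortex replicate 4 or medulla replicate 4 was left out.

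Of the genes with roles in RNA processing, Snrpa1 fell and Lsm10 rose. Snrpa1 (probeset 10553993), a protein of the U2 particle of the spliceosome, was at 10.90, 10.74, 11.23 and 10.43 in cortex and at 7.27, 7.21, 8.58 and 6.86 in medulla. The medulla array of replicate 3 was the highest of its group and still lay below all cortex arrays, and the difference was -3.34 ± 0.44 (adjusted p = 0.0017; 0.0902 in the 8-array block fit). Lsm10 (probeset 10508112), a protein of the U7 particle that matures histone transcripts, was at 7.27, 6.89, 7.01 and 6.92 in cortex and at 11.07, 11.24, 10.50 and 10.21 in medulla. It was dim in every cortex array and bright in every medulla array, with a difference of 3.73 ± 0.57 (adjusted p = 0.00406; 0.0884 in the 8-array block fit). Their families were counted beside them. Of 15 small nuclear ribonucleoprotein genes tested, 1 was called lower and 0 higher, and their median difference was 0.06. Of 13 Lsm genes, 1 was called higher and 0 lower, with a median of 0.07. Over all genes 0.0488% were called lower and 0.0209% higher. The calls are Snrpa1 and Lsm10 themselves, and the lists were written with earlier results known, so these counts describe and do not support them. Snrpd2, a core protein of the same particles, had a difference of 1.21 ± 0.40 that did not pass (adjusted p = 0.451).

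Eef1e1 and Zfp638 were lower in the medulla as well. Eef1e1 (probeset 10408762), an auxiliary protein of the aminoacyl-tRNA synthetase complex, had levels of 11.82, 11.28, 10.00 and 10.74 in cortex and 7.93, 7.77, 6.88 and 7.30 in medulla. The within-mouse differences lay close together, from -3.88 to -3.12, and the fitted difference was -3.49 ± 0.58 (adjusted p = 0.0116; 0.0884 in the 8-array block fit). Zfp638 (probeset 10539486), a nuclear zinc-finger protein, had levels of 10.08, 11.01, 9.70 and 10.22 in cortex and 6.98, 8.68, 8.10 and 8.54 in medulla. Its lowest array was medulla replicate 1, and the difference of -2.18 ± 0.31 (adjusted p = 0.00229; 0.643 in the 8-array block fit) was -1.82 without that array (adjusted p = 0.00475). Snrpa1, Cd300ld, Zfp638, Lsm10 and Eef1e1 passed whichever of the 8 arrays was left out, but of these 5 only Lsm10 passed when the 8 arrays were fitted alone with no term for mouse.

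The other 4 genes passed less firmly, each being lost in 3 or 5 of the 8 fits that left out an array. Mapk14 (probeset 10443391), the p38-alpha kinase of stress and cytokine signalling, was at 9.96, 10.63, 11.39 and 11.12 in cortex and at 7.72, 9.07, 9.08 and 8.68 in medulla. The groups were parted by less than 1 unit, and the difference was -2.14 ± 0.38 (adjusted p = 0.0238; 0.277 in the 8-array block fit; 0.053 without medulla replicate 1). Among 23 genes of the p38 and JNK pathway it was the only one called in this fit, and 11 members had differences above 0 and 12 below. Over all genes 0.0488% were called lower, and this list too was written with earlier results known. H1f2 (probeset 10404059), a linker histone, was at 10.93, 10.35, 8.39 and 8.79 in cortex and at 12.11, 11.51, 12.23 and 12.07 in medulla. Its medulla arrays lay within 1 unit of each other, and 2 of the 4 cortex arrays were much dimmer than the others, giving a difference of 2.37 ± 0.43 (adjusted p = 0.0267; 0.999 in the 8-array block fit). Without cortex replicate 3, cortex replicate 4 or medulla replicate 4 H1f2 did not pass.

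Septin2 (probeset 10348817), a GTP-binding protein of the cytoskeleton, was at 9.75, 12.32, 12.46 and 11.29 in cortex and at 6.44, 10.00, 9.52 and 8.05 in medulla. Both arrays of the mouse of replicate 1 were the lowest of their groups, so the groups overlapped although the within-mouse differences ran from -3.31 to -2.32. The difference was -2.95 ± 0.56 (adjusted p = 0.0441; 0.11 in the 8-array block fit; 0.0621 without medulla replicate 1). Bex3 (probeset 10601857), a small adaptor protein that binds the p75 neurotrophin receptor, was at 11.30, 10.19, 9.02 and 9.74 in cortex and at 12.92, 12.26, 12.08 and 12.69 in medulla. All medulla arrays lay above all cortex arrays, with a difference of 2.43 ± 0.47 (adjusted p = 0.0441; 0.502 in the 8-array block fit; 0.0776 without medulla replicate 1). Septin2 and Bex3 were each lost also without cortex replicate 2, 3 or 4 or medulla replicate 4, and Mapk14 without cortex replicate 3 or 4.

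A further 20 genes had the smallest p-values among those that did not pass but whose groups did not overlap, and they are given as values only, since that choice fixed their separation. Their adjusted p ran from 0.0528 to 0.0996. With mouse as a random block 18 of the 20 passed (adjusted p from 0.0253 to 0.0577), and in the 8-array block fit 0 passed (0.0902 to 0.999). Over all 28 arrays with mouse as a fixed block, 1 of the 20 passed, Arcn1 (adjusted p = 0.0273). Arcn1 was at 8.60, 10.98, 10.91 and 9.21 in cortex and at 11.15, 11.84, 11.86 and 11.73 in medulla. Its medulla mean of 11.64 was near the means of the C57BL/6, donor and host groups (11.71 to 12.20), and only BALB/c cortex was low (9.93 ± 1.21). Medulla levels were higher than cortex levels in 15 of the 20 and lower in 5. Apoe, the lipid carrier of macrophages, was at 12.42, 12.42, 12.57 and 12.33 in cortex and at 13.53, 13.36, 13.28 and 13.45 in medulla, with 4 close values in each region (difference 0.97 ± 0.20, adjusted p = 0.0528). Lyz2, the lysozyme of myeloid cells, was at 11.82, 12.09, 11.84 and 11.60 in cortex and at 13.21, 13.30, 13.25 and 13.67 in medulla (difference 1.52 ± 0.32, adjusted p = 0.0704). Cryab, a small heat shock protein, was at 8.37, 8.31, 8.26 and 9.04 in cortex and at 9.87, 10.72, 10.71 and 10.66 in medulla (difference 2.00 ± 0.40, adjusted p = 0.0528), and without medulla replicate 1 its difference of 2.20 passed (adjusted p = 0.0338). Capg, an actin-capping protein of macrophages, differed by 1.75 ± 0.39. Apoe and Lyz2 are resident macrophage and myeloid genes, and the list of 17 resident macrophage markers as a whole had a median difference of 0.03, with 9 members above 0 and 8 below.

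Npy, which encodes neuropeptide Y, was uneven among the mice. Its cortex arrays lay between 8.42 and 9.30, and its medulla arrays stood at 11.79, 9.39, 12.18 and 9.57, so that the mice of replicates 1 and 3 differed by 3.14 and 3.54 and those of replicates 2 and 4 by 0.97 and 0.27. The fitted difference was 1.98 ± 0.42 (adjusted p = 0.0704). Utrn, which encodes the cytoskeletal linker utrophin, was even instead, with within-mouse differences of 1.31, 1.35, 1.21 and 1.31 (fitted 1.29 ± 0.28, adjusted p = 0.0808). The remaining genes with higher medulla levels were Ptpn11, the phosphatase SHP-2 that PILRA recruits (1.59 ± 0.32), Arcn1 of the COPI vesicle coat (1.72 ± 0.36), the transcription factor gene Cebpd (1.05 ± 0.22), the mannose phosphate isomerase gene Mpi (1.95 ± 0.43), the folate enzyme gene Shmt1 (0.96 ± 0.21), the membrane-bending protein gene Pacsin2 (0.98 ± 0.22), the lymphatic growth factor gene Vegfc (1.19 ± 0.27), the costimulatory receptor gene Cd28 (1.36 ± 0.31) and the epithelial secreted protein gene Wfdc2 (2.20 ± 0.50). Without medulla replicate 1, Arcn1 and Cd28 passed (adjusted p = 0.0476 and 0.0409). Cd28 was at 6.82 to 7.31 in cortex, below the dim level given above, and at 7.69 to 8.98 in medulla. Its means in the C57BL/6, donor and host groups were 6.66 to 7.31. Vegfc was dim in cortex too (6.66 to 6.87), with medulla arrays at 8.65, 7.85, 8.38 and 7.04. For these genes the medulla arrays alone met the filter on level, so their separation is not independent of it.

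The 5 genes with lower medulla levels included Itgam, which encodes CD11b, the integrin of myeloid cells. It was at 9.53, 9.25, 9.70 and 9.38 in cortex and at 8.01, 7.26, 8.71 and 8.37 in medulla (difference -1.38 ± 0.28, adjusted p = 0.0528). Hlx, a homeobox transcription factor gene, was at 9.52, 9.85, 9.65 and 10.35 in cortex and at 8.65, 9.27, 9.04 and 8.94 in medulla (difference -0.87 ± 0.18, adjusted p = 0.0704). The others were Pkn2, a protein kinase gene (-1.97 ± 0.42), Psmc6, an ATPase of the proteasome (-2.17 ± 0.48), and Ankrd49, an ankyrin repeat gene (-2.91 ± 0.67). Ankrd49 had within-mouse differences of -2.89, -2.96, -2.44 and -3.34, as even as those of the genes that passed, at levels of 5.51 to 6.89 in medulla that lay below the dim level given above.

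**Figure D2:**
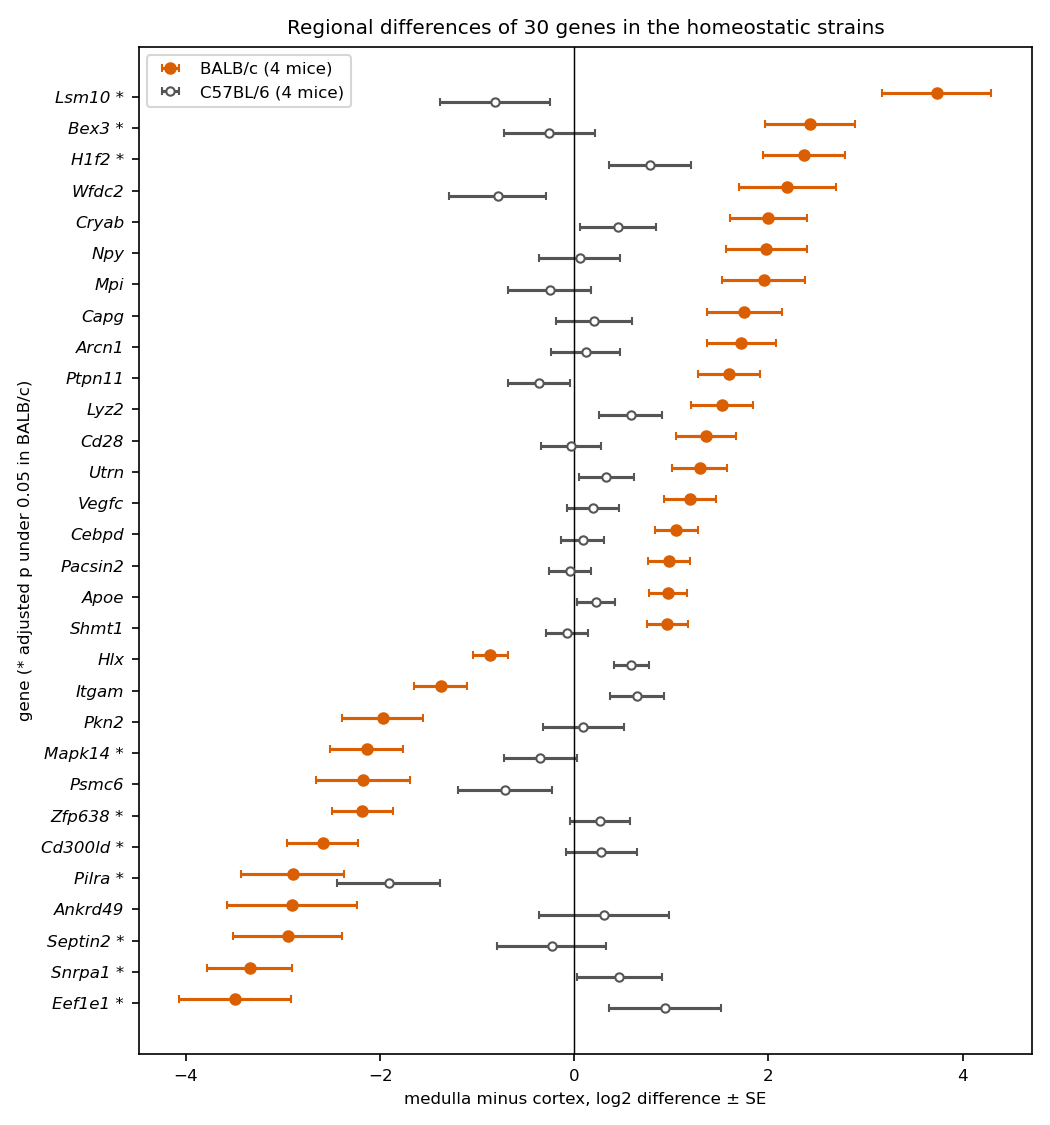
Medulla minus cortex as a log2 difference ± SE for the 10 genes that passed in BALB/c (asterisks) and the 20 named next, in BALB/c (filled) and in C57BL/6 (open), with 4 mice in each strain. The BALB/c values were chosen for their distance from 0 and run from -3.49 (Eef1e1) to 3.73 (Lsm10), while the C57BL/6 values of the same genes run from -1.91 (Pilra) to 0.94 (Eef1e1).

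The paired receptor list holds Cd300ld and Pilra, which put its 2 calls in view when it was written, so its counts describe and do not support them. Of 25 members tested, 2 were called lower and 0 higher, 6 were lower and 0 higher at an unadjusted p under 0.05, and 17 differences lay below 0. Over all genes 0.0488% were called lower, 3.43% were lower at an unadjusted p under 0.05, and 6477 of 14346 differences lay below 0. The median was -0.27, against 0.03 over all genes, and -0.24 without medulla replicate 1. The list averaged 9.34, 9.67, 9.19 and 9.51 in the cortex arrays and 8.87, 8.98, 8.92 and 8.84 in the medulla arrays. Clec4n, which encodes the activating lectin dectin-2, was at 10.91, 10.45, 6.86 and 9.65 in cortex and at 6.85, 6.91, 7.56 and 7.05 in medulla. The mouse of replicate 3 was dim in both regions, and the difference of -2.37 ± 0.63 did not pass (adjusted p = 0.196). The adaptors and phosphatases that such receptors use (8 tested) gave 0 calls and a median of -0.20, with 7 differences below 0 and 1 above. At an unadjusted p under 0.05, 1 was lower and 1 higher, against 3.43% and 3.54% of all genes. The higher one was Ptpn11, named above (1.59 ± 0.32, adjusted p = 0.0528), whose groups did not overlap. Inpp5d, the phosphatase SHIP-1, differed by -0.95 ± 0.42 (adjusted p = 0.673) and by -0.54 without medulla replicate 1.

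Markers of dendritic cell subsets gave 0 calls in any list. The pan dendritic cell list (10 tested) had a median of -0.24. The list includes Itgax, and its mean level was 8.54 to 9.00 in the cortex arrays and 8.11 to 8.41 in the medulla arrays. Dpp4, the peptidase CD26 found on migratory and type 1 dendritic cells, was at 9.57, 10.81, 8.50 and 8.51 in cortex and at 6.92, 8.42, 6.97 and 7.35 in medulla (difference -1.93 ± 0.47, adjusted p = 0.139). Clec9a, a receptor for dead cells on type 1 dendritic cells, was at 12.19, 12.49, 12.44 and 12.40 in cortex and at 8.46, 10.35, 11.03 and 9.24 in medulla. All 4 medulla arrays were lower and widely spread, and with this spread the difference of -2.61 ± 0.85 did not pass (adjusted p = 0.412). Cadm1, an adhesion molecule of the same subset, differed by -0.53 ± 0.21 (adjusted p = 0.613), and the list of 11 type 1 markers had a median of -0.17, or -0.32 without medulla replicate 1. That list was higher in the medulla in the mouse of replicate 1 (10.20 against 9.96) and lower in the other 3 mice. Type 2 markers (10 tested) had a median of 0.03, with Cd209a, the lectin DC-SIGN, at -1.23 ± 0.59. Of the chemokine receptors, Cxcr4 had its 4 medulla arrays between 10.70 and 11.14 and its cortex arrays between 8.65 and 10.20 (difference 1.58 ± 0.47, adjusted p = 0.319). Ccr2 (-1.07 ± 0.44) and Cx3cr1 (-0.63 ± 0.27), receptors of monocytes and of resident phagocytes, had differences below 0 that did not pass.

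Type I interferon response genes had lower medulla levels on the whole, with 0 of 22 called. Of these, 20 had differences below 0 and 4 were lower at an unadjusted p under 0.05 (3.43% of all genes). The list averaged 8.80, 9.34, 8.81 and 9.18 in cortex and 8.00, 8.44, 8.86 and 8.65 in medulla, so that in the mouse of replicate 3 the medulla was not lower. Its median of -0.57 was -0.33 without medulla replicate 1, which was the lowest of the 8 arrays. Rtp4, an interferon-induced chaperone gene, was at 11.29, 11.07, 10.91 and 11.38 in cortex and at 7.05, 7.74, 10.84 and 11.35 in medulla. It was low in the medulla of replicates 1 and 2 and at the cortex level in those of replicates 3 and 4 (difference -1.92 ± 0.69, adjusted p = 0.54; -1.18 without medulla replicate 1). Oas1a, which encodes an antiviral synthetase, differed by -1.24 ± 0.48 and did not pass. The interferon-gamma response list (16 tested, 0 called) had a median of -0.23, which became 0.01 without medulla replicate 1. In it Gbp3, a guanylate-binding protein gene, had cortex arrays from 8.67 to 9.18 and medulla arrays from 7.37 to 8.45 (difference -1.15 ± 0.42, adjusted p = 0.545).

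Antigen presentation and activation genes gave 0 calls. MHC class II presentation genes (10 tested) had a median of 0.00 and averaged 10.69 ± 0.14 in cortex and 10.67 ± 0.11 in medulla, and Ciita, their transactivator, differed by -0.71 ± 0.27 (adjusted p = 0.574). The class I list (15 tested) had a median of -0.05, and the maturation and costimulation list (21 tested) one of -0.14. In the latter Tnfsf9, the ligand of 4-1BB, had a difference of 1.16 ± 0.43 that became 1.80 without medulla replicate 1 and then passed (adjusted p = 0.0128). Inflammatory cytokine and chemokine genes (22 tested, 5 lower and 0 higher at an unadjusted p under 0.05, against 3.43% and 3.54% of all genes) had a median of -0.24, or -0.16 without medulla replicate 1. Il18 was at 10.62, 10.14, 7.94 and 8.38 in cortex and at 6.95, 6.94, 7.99 and 6.93 in medulla, with 2 bright and 2 dim cortex arrays (difference -2.07 ± 0.58, adjusted p = 0.266). Immediate early and dissociation stress genes, which respond to the preparation of tissue, had 23 of 27 differences above 0 with a median of 0.27 (0.18 without medulla replicate 1) and 0 calls. Junb, a subunit of the AP-1 transcription factor, differed by 0.76 ± 0.25 (adjusted p = 0.398). Phagocytic and scavenger receptors (17 tested, 0 called) had 11 differences above 0 and 6 below, with a median of 0.13. Among them Cd36 was at 12.09, 12.52, 11.84 and 12.16 in cortex and at 9.67, 11.15, 10.86 and 10.98 in medulla (difference -1.49 ± 0.39, adjusted p = 0.181). Stab1 went the other way, with a difference of 0.81 ± 0.33 that did not pass (adjusted p = 0.638).

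**Figure D3:**
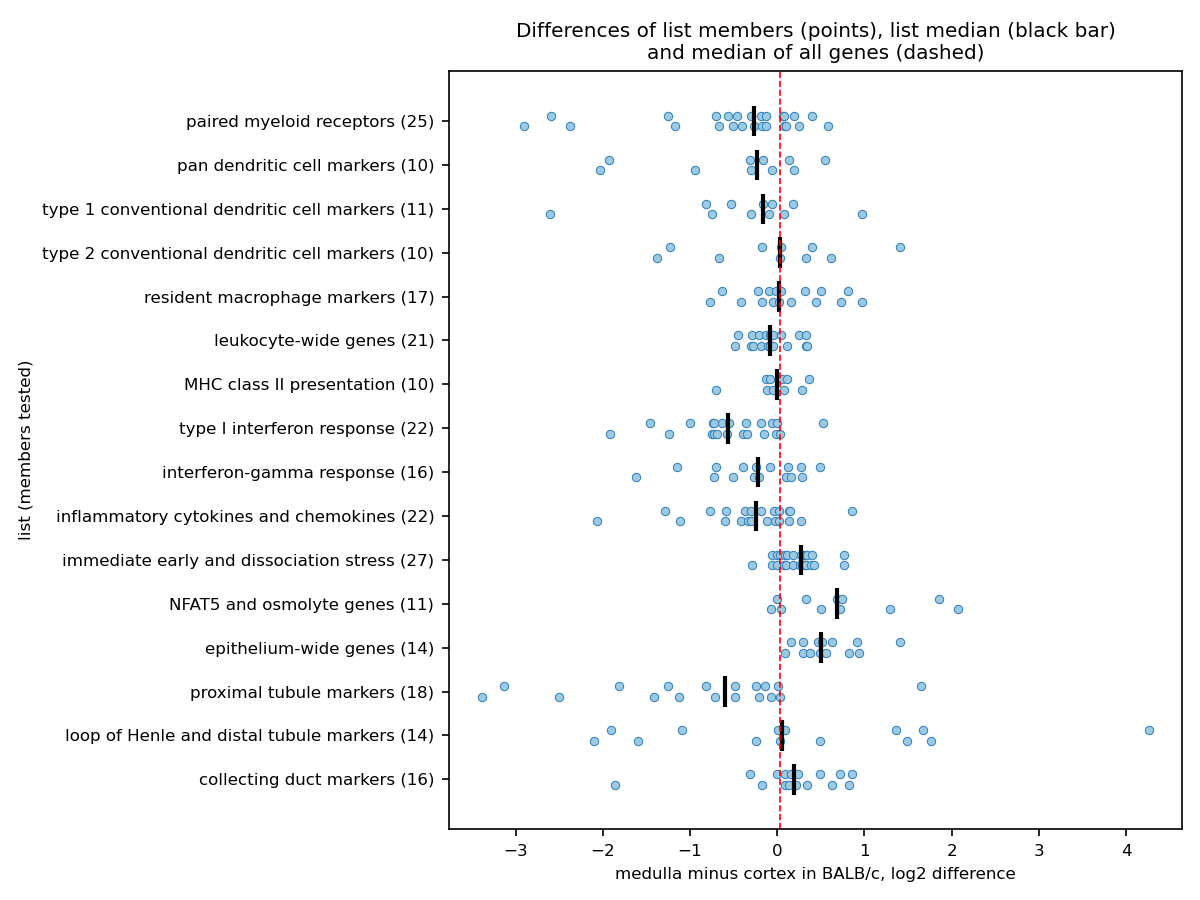
Medulla minus cortex in BALB/c (log2 difference) for each tested member of 16 gene lists, with the number tested in parentheses, the list median as a black bar and the median of all genes (0.03) as a dashed line. The epithelium-wide genes all lie above 0 with a median of 0.51, most type I interferon response genes lie below it with a median of -0.57, and the tubule lists are the most spread.

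The list of NFAT5 and osmolyte genes, called the osmolyte list, had higher medulla levels in most members, with 0 of 11 called. Besides osmolyte transporters it holds Ranbp3l, the urea transporter gene Slc14a2 and Aqp2, which is also in the collecting duct list. Of the 11, 9 differences lay above 0 and 5 were higher at an unadjusted p under 0.05, against 3.54% of all genes. The list averaged 8.49, 8.57, 8.71 and 8.53 in cortex and 8.61, 9.49, 10.18 and 8.97 in medulla, a narrow cortex range and a medulla range in which replicate 3 was highest and replicate 1 lay inside the cortex range. The median was 0.69, and 0.63 without medulla replicate 1. Ranbp3l, whose promoter is shown above, was at 6.82, 6.84, 6.93 and 7.02 in cortex, all dim, and at 7.30, 8.90, 11.10 and 8.59 in medulla. Its groups did not overlap, its difference of 2.07 ± 0.51 did not pass (adjusted p = 0.146), and without medulla replicate 1 it was 2.63 and passed (adjusted p = 0.0147). Slc6a12, the transporter of the osmolyte betaine, was at 8.17, 8.01, 8.57 and 8.39 in cortex and at 8.87, 10.48, 10.06 and 8.90 in medulla (difference 1.29 ± 0.32, adjusted p = 0.157; 0.0636 without medulla replicate 1). Slc6a6, the taurine transporter, differed by 0.74 ± 0.22 (adjusted p = 0.321), and Slc2a1, a glucose transporter of the hypoxia list, by 1.15 ± 0.45 with medulla arrays at 9.00, 10.56, 11.10 and 9.45. In Ranbp3l, Slc6a12 and Slc2a1 the medulla arrays of replicates 2 and 3 were the brightest and that of replicate 1 the dimmest.

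Genes of the epithelium-wide list had higher medulla levels in the same mice, though none was called. All 14 epithelium-wide genes tested had differences above 0, as did 7869 of 14346 genes, with a median of 0.51 (0.66 without medulla replicate 1); 4 were higher at an unadjusted p under 0.05 (3.54% of all genes) and 0 were called. The list averaged 8.36, 7.90, 8.58 and 8.13 in cortex and 8.55, 8.74, 9.32 and 8.63 in medulla, with the highest level in the same medulla array, replicate 3, in which the osmolyte list was highest. Epcam, an adhesion protein of epithelia that some dendritic cells also carry, was at 7.76, 7.70, 7.99 and 7.57 in cortex and at 8.49, 8.97, 9.81 and 9.37 in medulla (difference 1.40 ± 0.33, adjusted p = 0.108; 0.0479 with mouse as a random block). Cdh1, the epithelial cadherin, differed by 0.91 ± 0.36 and Cdh16, the kidney cadherin, by 0.94 ± 0.39. The part of epithelial RNA in the values of the osmolyte list was not tested, and several of its genes are expressed by medullary tubules as well.

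The lists of tubule segment markers varied among the mice. Of 18 proximal tubule markers tested, 0 were called and 15 differences lay below 0 (6477 of 14346 over all genes), with a median of -0.60. At an unadjusted p under 0.05, 6 were lower and 1 higher, against 3.43% and 3.54% of all genes. The list averaged 9.85, 8.60, 9.42 and 8.21 in cortex and 8.04, 7.90, 8.04 and 8.51 in medulla, so that in the mouse of replicate 4 the order was turned. Cyp2e1, a drug-metabolizing cytochrome P450, was at 12.57, 10.18, 11.63 and 7.03 in cortex and at 7.33, 6.94, 6.81 and 6.81 in medulla (difference -3.38 ± 0.67, adjusted p = 0.0528; 0.0253 with mouse as a random block). Kap, the androgen-regulated kidney protein, was at 12.77, 11.44, 12.07 and 10.28 in cortex and at 7.32, 6.82, 8.59 and 11.33 in medulla (difference -3.13 ± 0.77, adjusted p = 0.146). Cubn, the endocytic receptor cubilin of the same segment, was dim in all 8 arrays, from 6.49 to 7.21. Aqp1, a further member of that list, went the other way. It was at 8.48, 8.12, 8.76 and 8.17 in cortex and at 9.01, 9.71, 9.45 and 11.97 in medulla. Its groups did not overlap, but the difference of 1.65 ± 0.44 did not pass (adjusted p = 0.197). Loop of Henle and distal tubule markers (14 tested, 0 called) had 9 differences above 0 and 5 below, with a median of 0.06. Slc12a1, the salt transporter of the thick ascending limb, was at 9.98, 6.16, 6.91 and 6.52 in cortex and at 9.87, 12.66, 12.59 and 11.48 in medulla, a difference near 0 in the mouse of replicate 1 and of 4.96 to 6.50 in the others (fitted 4.26 ± 1.11, adjusted p = 0.181). S100g and Pvalb, which buffer calcium in distal tubule cells, differed by -1.60 ± 0.43 and -2.10 ± 0.65. Collecting duct markers (16 tested, 0 called) had 12 differences above 0 and 4 below. Their median was 0.19, or 0.08 without medulla replicate 1. In that list Atp6v1g3, a proton pump subunit of intercalated cells, was the only member lower at an unadjusted p under 0.05. Atp6v1g3 was at 11.57, 10.35, 11.11 and 10.25 in cortex and at 11.36, 8.47, 8.33 and 7.69 in medulla. Its difference of -1.86 ± 0.56 was -2.66 without medulla replicate 1, when it passed (adjusted p = 0.00823). The sort was for leukocytes, and what part such transcripts have in the differences of other genes was not tested.

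**Figure D4:**
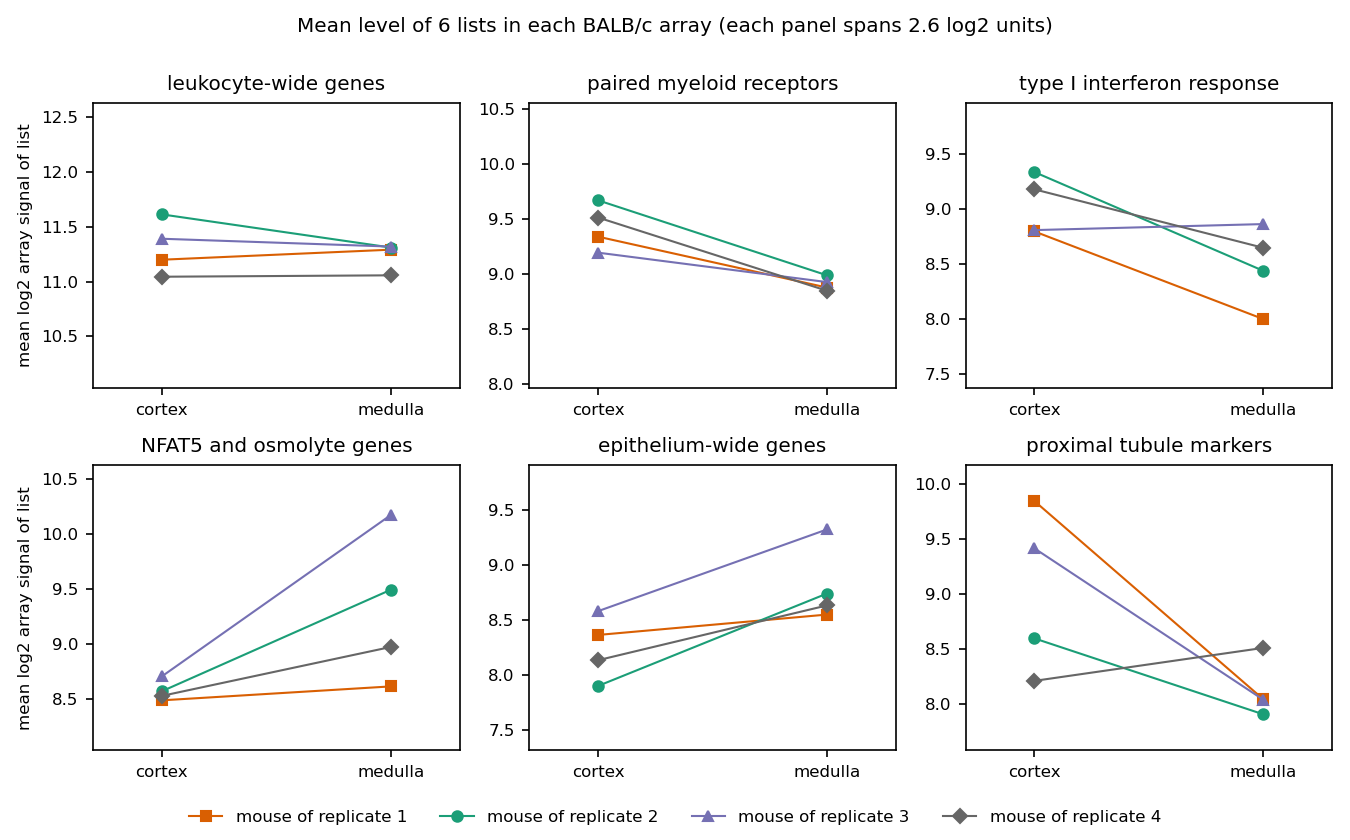
Mean log2 array signal of 6 gene lists in each BALB/c array, with a line joining cortex and medulla of each mouse; every panel spans the same number of log2 units. Leukocyte-wide genes lie between 11.04 and 11.61 in all arrays, paired receptors are lower in all 4 medulla arrays, and the osmolyte and epithelium-wide lists are higher in all 4 medulla arrays than in the cortex of the same mouse.

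The regional differences of BALB/c were then set against those of C57BL/6, the other homeostatic strain, which share no array with them. In C57BL/6 22 genes passed between medulla and cortex (0.153%), and in the test of BALB/c minus C57BL/6 regional differences 6 genes passed (0.0418%), 1 higher and 5 lower. These were Lsm10 (4.55 ± 0.80), Snrpa1 (-3.81 ± 0.62), Cd300ld (-2.87 ± 0.52), Zfp638 (-2.45 ± 0.44) and Hlx (-1.46 ± 0.26), each with an adjusted p of 0.0395, and Eef1e1 (-4.43 ± 0.82, adjusted p = 0.0428). At an unadjusted p under 0.05 there were 613. Each of the 6 calls was lost in 10 to 14 of the 16 fits that left out an array, among them the fit without BALB/c medulla replicate 1, in which limma called 0 genes with 736 at an unadjusted p under 0.05. With mouse as a fixed block over all 28 arrays limma called 1 gene, which was none of the 6. When only the groups compared were fitted, it called 3 with no term for mouse and 0 with mouse as a fixed block (797 at an unadjusted p under 0.05). With mouse as a random block it called 7.

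For all of the 6 but Hlx, the BALB/c medulla mean lay outside the range of the other homeostatic group means. Snrpa1 was at 7.48 ± 0.76 (SD, n = 4) there, against 10.82 ± 0.33 in BALB/c cortex, 10.11 ± 0.54 in C57BL/6 cortex and 10.58 ± 0.42 in C57BL/6 medulla. Donor medulla was low for Snrpa1 as well (8.76 ± 0.61, n = 3), and its lowest array at 8.17 lay below the highest BALB/c medulla array at 8.58. Zfp638 was at 8.07 ± 0.77, against 10.25 ± 0.55, 10.34 ± 0.32 and 10.61 ± 0.32 in the same order, and Eef1e1 at 7.47 ± 0.48, against 10.96 ± 0.78, 9.54 ± 1.06 and 10.47 ± 0.82. Lsm10 was at 10.75 ± 0.48 in BALB/c medulla, against 7.02 ± 0.17, 8.59 ± 1.22 and 7.78 ± 0.58. Its BALB/c medulla arrays lay between 10.21 and 11.24, and the highest of all other arrays was C57BL/6 cortex at 9.66. In C57BL/6 medulla Cd300ld (11.33 ± 0.27) lay within 1 unit of both cortex groups (11.40 ± 0.36 in BALB/c and 11.05 ± 0.54 in C57BL/6), and only the BALB/c medulla was low among homeostatic groups (8.80 ± 0.42). Hlx differed in another way: its BALB/c cortex (9.84 ± 0.36) stood above BALB/c medulla (8.98 ± 0.25), C57BL/6 medulla (8.93 ± 0.26) and C57BL/6 cortex (8.35 ± 0.27). Pilra had lower medulla levels in both strains, with differences of -2.90 ± 0.53 in BALB/c and -1.91 ± 0.53 in C57BL/6, where it did not pass (adjusted p = 0.25), and the test of the difference gave -0.99 ± 0.75. H1f2 was higher in C57BL/6 medulla too, by 0.78 ± 0.43 (11.39 to 11.62 in cortex, 12.16 to 12.44 in medulla). Its cortex mean was 9.62 ± 1.22 in BALB/c and 11.48 ± 0.10 in C57BL/6. Mapk14 (-0.35 ± 0.38) and Septin2 (-0.23 ± 0.56) kept the BALB/c sign in C57BL/6, and Bex3 (-0.26 ± 0.47) did not. None of these passed in C57BL/6.

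**Figure D5:**
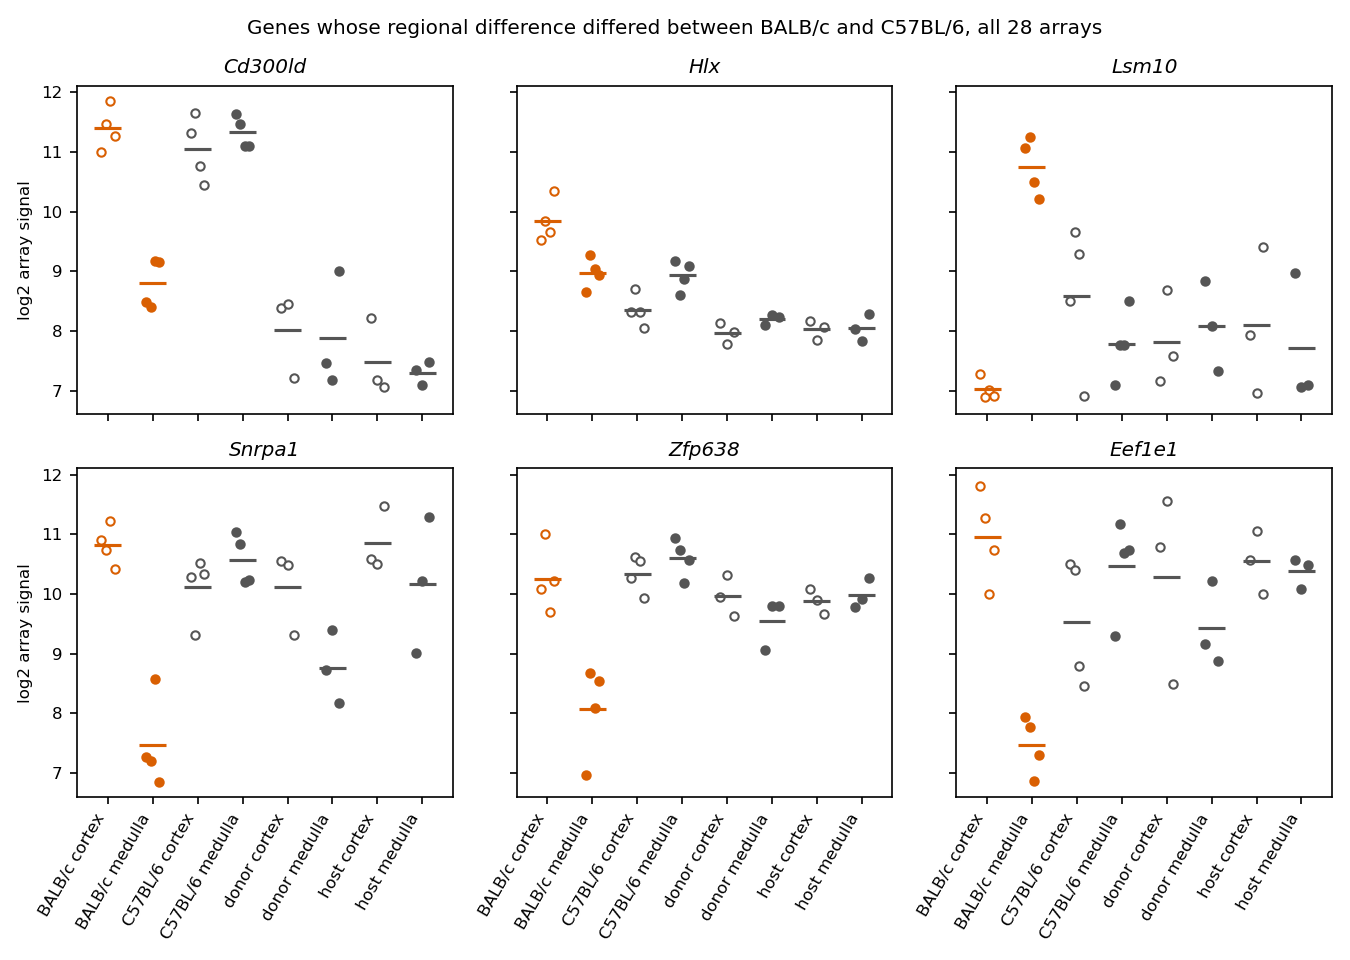
Log2 array signal in all 28 arrays for the 6 genes whose regional difference differed between BALB/c and C57BL/6; open circles are cortex, filled circles medulla, short bars group means, and the 2 BALB/c homeostatic groups are coloured. In Snrpa1, Zfp638, Eef1e1 and Lsm10 the BALB/c medulla mean stands apart from the other 7 group means, and in Cd300ld the 4 graft groups lie at 7.30 to 8.02, below every homeostatic group mean.

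List medians of both strains are given side by side, with no test between strains. The proximal tubule list had a median difference of -1.54 in C57BL/6 and -0.60 in BALB/c, the loop of Henle and distal tubule list -1.07 and 0.06, the epithelium-wide list -0.09 and 0.51, the osmolyte list 0.14 and 0.69, the type I interferon list -0.19 and -0.57, and the paired receptor list 0.00 and -0.27. Cyp2e1 shows the tubule values for a single gene: in C57BL/6 it stood at 12.55 ± 0.39 in cortex and 7.09 ± 0.68 in medulla, a difference of -5.46 ± 0.67, and in BALB/c the difference was -3.38 ± 0.67 with a cortex SD of 2.42.

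Donor cells of the grafts carry the same strain label, and their regional difference minus that of BALB/c passed for 65 genes (0.453%), 8 higher and 57 lower; 105 passed with mouse as a random block, 62 with mouse as a fixed block over all 28 arrays, and 111 without BALB/c cortex replicate 1. When only the groups compared were fitted, 89 passed with no term for mouse and 27 with mouse as a fixed block. Fabp7, Cubn and Slc14a2, among the genes with the smallest adjusted p, differed little between regions in homeostatic BALB/c and were regional in donor cells. Fabp7, a fatty acid-binding protein gene, was at 7.29 ± 0.18 in cortex and 7.17 ± 0.12 in medulla of BALB/c, and at 11.47 ± 0.90 and 7.06 ± 0.14 in donor cells (difference of differences -4.29 ± 0.34, adjusted p = 2.02e-07). Cubn was at 6.87 ± 0.31 and 6.66 ± 0.07 in BALB/c and at 11.19 ± 0.07 and 6.37 ± 0.04 in donor cells (-4.61 ± 0.51, adjusted p = 3.01e-05). Every homeostatic BALB/c array of Fabp7 and Cubn lay below the dim level of 7.45 to 7.62, so their flatness there is that of genes near the floor. Host cells of the grafts had the same pattern in cortex and medulla, at 11.83 and 6.86 for Fabp7 and at 10.62 and 6.53 for Cubn. Slc14a2, the urea transporter of the collecting duct, was at 7.87 ± 0.13 and 8.21 ± 0.38 in BALB/c and at 7.33 ± 0.14 and 10.15 ± 0.37 in donor cells (2.49 ± 0.28, adjusted p = 3.01e-05). Some genes near the top of the BALB/c comparison had regional differences in donor cells too. Cryab differed by 2.00 ± 0.46 there, Apoe by 1.15 ± 0.23, Lyz2 by 1.64 ± 0.37 and Npy by 4.35 ± 0.49, and all 4 passed in the donor comparison (2.54% of genes passed), with adjusted p of 0.015, 0.00413, 0.014 and 7e-06. In the donor comparison the 10 genes that passed in BALB/c did not pass. Pilra had the largest donor difference of the 10, at -2.12 ± 0.61 (adjusted p = 0.0719), followed by Snrpa1 at -1.36 ± 0.51 and Mapk14 at -0.97 ± 0.44. Lsm10 was at 0.26 ± 0.65. Cd300ld was at -0.13 ± 0.42, with low levels in both regions (8.02 ± 0.69 and 7.88 ± 0.97), and its donor minus BALB/c difference of 2.46 ± 0.56 passed (adjusted p = 0.0497), the only one of the 10 to do so.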

How the data were processed

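RNA from 28 samples of sorted mouse kidney cells was measured on Affymetrix arrays, 1 array per sample. The deposited values are log2 array signals. Per the submitters' processing notes, the authors used RMA in the oligo package, which subtracts background, equalizes the arrays' quantiles and summarizes probes. Its version is not given. RMA normalizes all arrays to a shared distribution, so differences in total RNA are not seen. The values were used as given, and the number of arrays limits the precision.

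Of 22549 probesets, 20646 with 1 gene symbol were used (551 have several and 1352 none), covering 19272 symbols, of which 19227 matched the mouse gene table and 810 had more than 1 probeset. The probeset with the highest mean was kept. Genes above the 40th percentile of their array in at least 3 arrays were tested (14346).

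In limma 3.58.1 (R 4.3.3), a model with a mean for each group and no term for mouse was fitted to all 28 arrays, which leaves 20 residual degrees of freedom. Tests were 2-sided, and p-values were adjusted by Benjamini and Hochberg over all genes tested, with a threshold of 0.05. The code was tested on simulated data.

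The labels give cortex and medulla of each mouse the same number, so arrays are paired by animal. As a check, residuals from the group means correlated between the regions of a mouse by -0.0186 on average (-0.150 to 0.133), against 0.00637 for different mice; the consensus correlation over the series was 0.134.

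The comparison, its members and the gene lists were chosen with earlier results of these data known. Named genes are those that passed, then the smallest p-values with groups that do not overlap up to 30 genes (leaving out predicted genes, pseudogenes, and olfactory and vomeronasal receptors), the 3 smallest p-values of each list, the sort markers, and the leading genes of the comparisons between strains and with donor cells; some were left out for length. Alternatives were mouse as a random block over all 28 arrays and as a fixed block with only the groups compared (and, added after the data were seen, over all 28 arrays), no filter, a strict filter, a repeated quantile normalization, a variance trend with robust statistics, only the groups compared, array weights, another probeset rule, and each array left out.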

Additional observations from a re-analysis of the deposited data

Results flagged for a closer look

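Among 152 groups of 4 BALB/c arrays of the genes named, 11 held an array far from the other 3, where chance alone gives about 1 in 20. Cortex replicate 4 was such an array for Cryab (9.04, the others 8.26 to 8.37), Pkn2 (9.01, the others 10.24 to 10.44), Mpi (7.95, the others 7.61 to 7.63) and H2-Eb1 (12.28, the others 12.47 to 12.50). Cortex replicate 2 was high for Itgax (11.85, the others 9.90 to 10.15) and Stab1 (9.17, the others 8.26 to 8.37), cortex replicate 3 was low for Oas1a (8.20, the others 9.80 to 9.98), and cortex replicate 1 was low for Fabp7 (7.02, the others 7.37 to 7.38). In the medulla, replicate 1 was low for Cryab (9.87, the others 10.66 to 10.72), replicate 2 high for Cebpd (9.88, the others 8.65 to 8.81) and replicate 3 high for Il18 (7.99, the others 6.93 to 6.95). Of the 11, 1 lay in medulla replicate 1.

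The regional difference of BALB/c minus that of C57BL/6 passed for Cd300ld (-2.87), Hlx (-1.46), Lsm10 (4.55), Snrpa1 (-3.81), Zfp638 (-2.45) and Eef1e1 (-4.43). The regional difference of donor cells minus that of BALB/c was -4.29 for Fabp7, -4.61 for Cubn and 2.49 for Slc14a2, and these 3 passed in all settings in which they could be fitted.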

How the results depend on the processing

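The count of 10 genes for the regional difference in BALB/c became 40 with mouse as a random replicate block, 8 with mouse as a fixed replicate block over all 28 arrays, 0 with that block and only the groups compared (655 at an unadjusted p under 0.05), 16 with the strict filter, 39 with a repeated quantile normalization, 1 with only the groups compared and no block, and 16 with the probeset of largest interquartile range. All 10 genes were among those called with the random block, the strict filter, the repeated normalization and the other probeset rule. Leaving out an array gave 8 to 29 genes, with 21, 29 and 25 without medulla replicate 1, 2 or 3.

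The 6 genes for BALB/c minus C57BL/6 became 1 with the fixed block over all 28 arrays, 0 with that block and only the groups compared, 0 without a filter (768 at an unadjusted p under 0.05) and with a variance trend (611), and 3 with only the groups compared and no block. Leaving out an array gave 0 to 11: 0 without C57BL/6 cortex 1 or medulla 1, 2 or 4 and without BALB/c medulla 1 or 4 or cortex 2 or 4, 3 and 1 without C57BL/6 cortex 3 or 4, 2 without BALB/c medulla 2, and 11 without BALB/c cortex 1.

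The 65 genes for donor minus BALB/c became 105 with the random block, 62 with the fixed block over all 28 arrays, 27 with that block and only the groups compared (89 without the block), 30 with the strict filter and 46 to 111 when an array was left out. With array weights 93 passed, 29 higher and 64 lower, against 8 and 57. The cause of these changes was not tested.

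Over all named genes, no difference that passed turned its sign in any setting run. Settings other than leaving out an array ended 56 calls and made 55 new ones, and left 731 values on the same side of the threshold. Leaving out an array ended 88 and made 29. With 4 arrays a group, smaller differences than those called here may go undetected.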
